A study of Mus musculus with 24 samples.

Results

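The genes described here are 45 interferon-stimulated effector genes, antiviral and GTPase proteins that interferon induces, taken by symbol from a list of names. All 45 were found among the 45706 genes of the count table, and all 45 passed the filter on low counts that left 16573 genes for testing. Their levels come from 24 RNA-seq libraries of fibroblasts from E13.5 mouse embryos, cells of connective tissue that grow readily in a dish. The cells were wild type (WT), altered in Vhl, altered in Rassf1a or altered in both (Vhl/Rassf1a). Each of the 4 genotypes had 3 libraries named GFP, given as control, and 3 named Cre, given as knockout (KO). WT cells with Cre were given the KO label too, although no gene is named as altered in them. The series asks what mutation of Vhl and Rassf1a does to gene expression, with clear cell kidney cancer in view. How Cre or GFP was brought into the cells is not said, nor are the altered exons or the number of embryos and cultures behind the libraries. The p-values therefore cover the spread among these libraries, which could be technical only.

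Interferons are secreted alarm proteins. Type I interferon binds a receptor of Ifnar1 and Ifnar2, the kinases Jak1 and Tyk2 activate transcription factors such as Stat2, which with Irf9 bind a GAAA-repeat element in the promoters of their target genes. The proteins made from those genes bind viral RNA, tag proteins with Isg15, break up the compartments of intracellular microbes or block virus entry and release. Fibroblasts are known to keep many of these genes at a basal level without infection.

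By role, 9 members are Ifit and Oas proteins that bind viral RNA (Ifit1, Ifit2, Ifit3, Ifit3b, Oas1a, Oas2, Oas3, Oasl1 and Oasl2). The Isg15 system and other ubiquitin ligases have 7 (Isg15, Usp18, Herc6, Trim25, Trim30a, Rnf213 and Dtx3l), and the Parp enzymes 3 (Parp9, Parp12 and Parp14). GTPases number 10 (Gbp2, Gbp3, Gbp7, Iigp1, Irgm1, Irgm2, Igtp, Ifi47, Mx1 and Mx2), and sensors of foreign nucleic acid 4 (Dhx58, Ddx60, Eif2ak2 and Zbp1). The other 12 are membrane proteins, the Rsad2 and Cmpk2 pair and further effectors (Bst2, Ifitm3, Rsad2, Cmpk2, Samd9l, Rtp4, Lgals3bp, Sp100, Xaf1, Ifi44, Ifi35 and Ifi27).

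Library totals ran from 29.9 M to 55.8 M counts (M, 1e6). Vhl stood at 25.7, 27.6 and 26.8 CPM (counts scaled to 1e6 per library) in Vhl GFP, 2.54, 2.34 and 2.85 in Vhl Cre, 20.8, 21.3 and 23.8 in Vhl/Rassf1a GFP and 1.81, 2.70 and 1.77 in Vhl/Rassf1a Cre, and between 22.5 and 29.1 CPM in the WT and Rassf1a libraries. The low Vhl levels match the Cre label in both genotypes altered in Vhl. Rassf1 stood at 31.2, 26.7 and 25.8 CPM in Rassf1a GFP and 27.1, 27.5 and 25.2 in Rassf1a Cre. It was higher with Cre in Vhl cells (24.0, 26.7 and 29.0 with GFP, 42.6, 44.0 and 44.6 with Cre). So it was in Vhl/Rassf1a cells (30.1, 37.2 and 30.6 with GFP, 42.8, 45.7 and 46.9 with Cre). WT libraries lay between 29.9 and 37.2 CPM. The Rassf1 count covers all forms of the gene and does not check the Rassf1a label. All 12 fibroblast markers had reads in every group. A pair of GFP libraries stood apart. Rassf1a GFP replicate 1 was the highest of its group for 44.5% of all genes and the lowest for 40.0%, and Vhl/Rassf1a GFP replicate 2 for 45.2% and 39.8%. The counts of members that use them, and the Vhl/Rassf1a Cre effects of the members described in every library, are also given without them. Since RNA came from whole cultures, fewer cells of a type and less RNA per cell cannot be told apart.

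Many members carry the GAAA-repeat element in their promoters. RefSeq promoter windows (GRCm38.p6, 250 bases before to 50 after the start site) were at hand for 34 members, and 18 of these (52.9%) held GAAANNGAAA on either strand. Of 27025 gene symbols with a RefSeq promoter window, whether tested here or not, 1079 (3.99%) held it. A second motif, TTCNNNGAA, which is its own reverse complement and may overlap the other, was in 9 of the 34 members (26.5%) against 9.55% of genes. A match describes these letters and is not a shown binding site. The stretches below hold the matches of 7 members, 3 of them described in every library (Ifit1, Isg15 and Irgm1), the near-copies Ifit3 and Ifit3b, and Gbp3 and Bst2 for the GTPase and membrane groups. They are written in the direction of transcription with the bases of matches in capitals, where runs of capitals longer than the motif are overlapping matches.
Ifit1 (chr19:34640765-34640833, plus strand): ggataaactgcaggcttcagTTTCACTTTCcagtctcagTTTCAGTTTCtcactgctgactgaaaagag
Ifit3 (chr19:34583353-34583436, plus strand): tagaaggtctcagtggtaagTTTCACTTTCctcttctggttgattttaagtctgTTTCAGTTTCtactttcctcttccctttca
Ifit3b (chr19:34607749-34607832, plus strand): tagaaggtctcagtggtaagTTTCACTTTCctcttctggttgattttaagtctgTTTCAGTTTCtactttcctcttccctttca
Isg15 (chr4:156200855-156200916, minus strand): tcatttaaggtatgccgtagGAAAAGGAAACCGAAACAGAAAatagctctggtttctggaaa
Gbp3 (chr3:142559979-142560034, plus strand): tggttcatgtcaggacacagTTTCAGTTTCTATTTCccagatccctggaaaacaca
Irgm1 (chr11:48871421-48871470, minus strand): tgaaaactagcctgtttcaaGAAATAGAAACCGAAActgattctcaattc
Bst2 (chr8:71537567-71537622, minus strand): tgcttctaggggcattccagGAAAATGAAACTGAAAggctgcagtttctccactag
Ifit1, Ifit3 and Ifit3b each hold the motif at 2 separate places, read from the opposite strand. Counted from the start site as 0, the matches of Ifit1 begin at -104 and -85, those of Ifit3 at -156 and -122, and those of Ifit3b at -188 and -154. The 84 bases shown for Ifit3 and Ifit3b differ at 0 positions, and the genes lie side by side on chromosome 19, so reads of their near-identical copies may have been split between them. In Isg15, 3 overlapping matches run from -78, in Gbp3 2 from -45, in Irgm1 2 from -30 and in Bst2 2 from -130.

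With Cre, the members were lower almost throughout in both genotypes altered in Vhl. In Vhl cells 43 of 45 members fell and 0 rose (edgeR quasi-likelihood test, Benjamini-Hochberg adjusted p under 0.05), where 36.1% of all tested genes were called in either direction and 18.7% lower. In Vhl/Rassf1a cells 44 of 45 fell and 0 rose, where 29.7% of all tested genes were called and 14.8% lower. The median log2 fold change of the members was -1.39 in Vhl cells and -1.63 in Vhl/Rassf1a cells, against -0.01 and 0.00 over all tested genes. At least 2-fold lower were 31 and 35 members, a size and direction reached by 2.50% and 1.26% of all tested genes. The summed fibroblast markers were also lower in every Vhl Cre library (46714 to 50264 CPM) than in every Vhl GFP library (57244 to 59575 CPM), and the summed endothelial markers higher (20.8 to 22.2 against 16.9 to 18.2 CPM). For 45 of 45 members every Vhl Cre library lay below every Vhl GFP library, as it did for 27.5% of all tested genes. In Vhl/Rassf1a cells this held for 42 of 45 members, against 19.3% of genes, with overlap for Oas2, Oas3 and Samd9l. Without the pair of GFP libraries that stood apart, 45 of 45 members fell in Vhl/Rassf1a cells, with a median of -1.34. The Cre effect there was then -2.15 for Ifit1, -0.30 for Ifit2, -2.10 for Oasl2, -2.22 for Isg15, -1.12 for Rnf213 and -0.34 for Trim25. It was -0.95 for Parp12, -0.80 for Parp9, -0.97 for Irgm1, -1.36 for Irgm2, -0.48 for Eif2ak2 and -1.38 for Dhx58, and -0.97 for Ifitm3, -1.04 for Lgals3bp and -1.14 for Xaf1. Over the 45 members, leaving out the pair moved this effect by -0.05 to 0.82 on the log2 scale. The size moved by over 1.5 times for Oas2 (to -1.16), Oas3 (to -1.31) and Ifi35 (to -0.71), and Samd9l was called without the pair (-0.42, adjusted p = 0.0312, edgeR).

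The same comparison gave no called member where Vhl was not altered. In Rassf1a cells 0 of 45 members were called, 0 had an unadjusted p under 0.05 and 0 were called by DESeq2, where 0.392% of all tested genes were called. Their median log2 fold change was -0.09. Without the pair of GFP libraries 0 were called by edgeR and 0 had an unadjusted p under 0.05, with a median of -0.06. In WT cells 0 were called by edgeR and 0 by DESeq2, 2 had an unadjusted p under 0.05, and 1.26% of all tested genes were called, with a member median of -0.09. In WT cells every Cre library lay below every GFP library for 2 members, Ifit2 and Cmpk2, as for 6.29% of all tested genes, and above for 1, Oas2, as for 8.74%. Without the filter on low counts, 1 member in Rassf1a cells and 4 in WT cells (1 higher, 3 lower) passed. Intervals show what these libraries could leave undetected: for Ifitm3 in Rassf1a cells the 95% interval was -0.42 to 0.14 on the log2 scale, and for Isg15 it was -1.03 to 0.59.

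Tests of the difference itself compared the Cre effects between genotypes. Relative to the Cre effect in WT cells, 36 members fell further in Vhl cells and 0 rose (23.2% of genes called in either direction, 12.5% lower). The 9 not called were Ifit2, Oas3, Oasl1, Ifi47, Mx1, Bst2, Rsad2, Samd9l and Sp100. In Vhl/Rassf1a cells 40 fell further than in WT cells and 0 rose (14.8% of genes called, 7.40% lower), and Ifit2, Ifi47, Mx1, Rsad2 and Samd9l were not called. Without the pair of GFP libraries the Vhl/Rassf1a count was 39. In Rassf1a cells 0 differed from WT (edgeR, 0 at an unadjusted p under 0.05, 0 by DESeq2, 0.00603% of genes called), and 0 without the pair.

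Between the Vhl and Vhl/Rassf1a cells no member's Cre effect was called different, by edgeR or DESeq2, where 6.09% of genes were. An unadjusted p under 0.05 was reached by 2, Oasl1 and Bst2. For Bst2, known as tetherin, which holds budding virus particles at the cell surface, the Cre effect was -1.14 (SE 0.24) in Vhl cells and -2.11 (SE 0.25) in Vhl/Rassf1a cells. Its difference of -0.97 had a 95% interval of -1.71 to -0.24 and an adjusted p of 0.109. The difference for Isg15 was -0.68 with an interval of -1.90 to 0.54, so these data do not show that the effects are alike. This count depended on single libraries. It was 2 lower without Vhl/Rassf1a GFP replicate 3 or Vhl/Rassf1a Cre replicate 3, 2 higher (Gbp2 and Ifitm3) without the pair of GFP libraries that stood apart, and 9 lower without the filter on low counts.

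**Figure D1:**
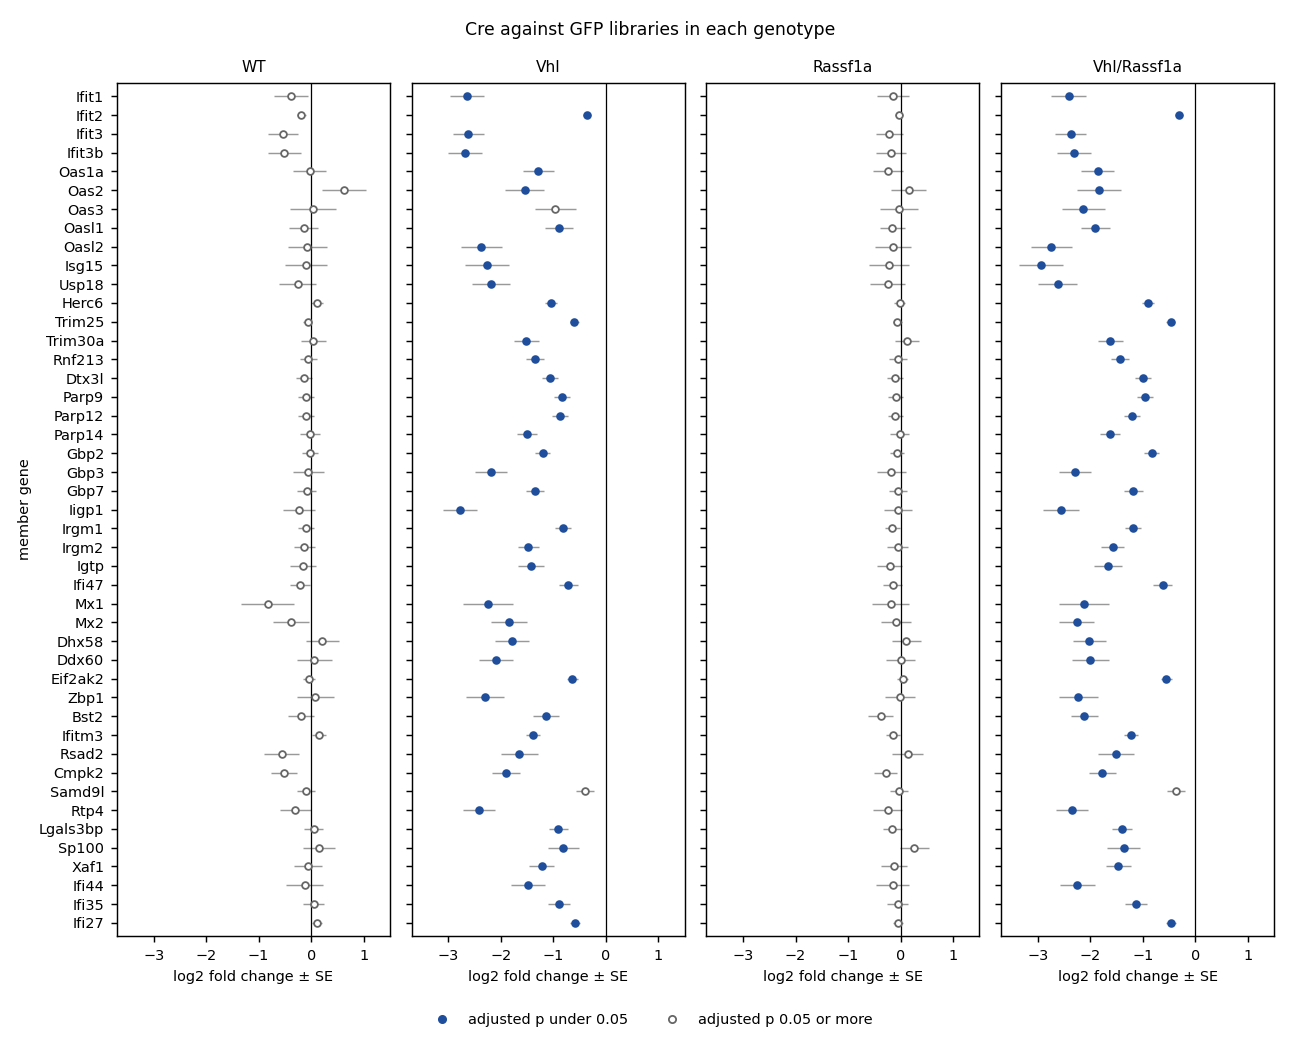
Log2 fold change (horizontal axis, log2 scale, ± SE) of each of the 45 members (vertical axis) between Cre and GFP libraries in each genotype, with filled points for an adjusted p under 0.05. The filled points lie left of 0 in the Vhl (43) and Vhl/Rassf1a (44) panels, and the WT and Rassf1a panels have 0.

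Among the RNA-binding members, the Ifit genes spanned a wide range. Ifit1 (ENSMUSG00000034459, chromosome 19, 34640871 to 34650009, GRCm38) encodes a protein that seizes viral RNA lacking the host's cap marks. Its levels in the 3 libraries of a group were 68.0, 93.2 and 73.2 CPM in Vhl GFP, 16.8, 11.1 and 9.47 in Vhl Cre, 42.8, 61.8 and 35.6 in Vhl/Rassf1a GFP and 4.84, 5.20 and 16.1 in Vhl/Rassf1a Cre. Every Cre library of these genotypes was below every GFP library. WT cells held 31.9, 32.2 and 17.8 CPM with GFP and 19.5, 24.3 and 19.3 with Cre, and Rassf1a cells 48.9, 53.4 and 44.99 with GFP and 46.8, 33.5 and 52.7 with Cre. GFP and Cre values overlapped in both, and all 6 Rassf1a libraries were above all 6 WT libraries. Ifit1 fell 6.26-fold in Vhl cells (log2 fold change -2.65, SE 0.33, adjusted p = 9.69e-07) and 5.34-fold in Vhl/Rassf1a cells (-2.42, SE 0.34, adjusted p = 7.01e-06).

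Ifit2 (ENSMUSG00000045932, chromosome 19, 34550694 to 34576419), which lies next to Ifit3 and was described in every library after its values were seen, behaved otherwise. Its level was 26.4, 27.4 and 26.6 CPM in Vhl GFP, 22.2, 21.4 and 19.2 in Vhl Cre, 26.8, 26.2 and 24.5 in Vhl/Rassf1a GFP and 18.9, 23.6 and 20.3 in Vhl/Rassf1a Cre. In WT cells it was 27.4, 24.3 and 23.3 with GFP and 22.4, 22.5 and 21.2 with Cre, and in Rassf1a cells 23.6, 25.0 and 26.6 with GFP and 25.3, 22.5 and 25.6 with Cre. The Cre libraries lay below the GFP libraries in WT cells too, where the effect of -0.18 (SE 0.08, adjusted p = 0.453) was not called. All 24 libraries lay between 18.9 and 27.4 CPM. Ifit2 fell by 0.35 (SE 0.08, adjusted p = 0.000977) in Vhl cells and by 0.31 (SE 0.08, adjusted p = 0.00437) in Vhl/Rassf1a cells on the log2 scale, and the second call was lost when only the compared groups were fitted (adjusted p = 0.0527). Its neighbours Ifit3 and Ifit3b fell by 2.62 and 2.69 in Vhl cells and by 2.37 and 2.31 in Vhl/Rassf1a cells. Neither RefSeq window of Ifit2 held GAAANNGAAA.

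Of the Oas family, whose enzymes make a messenger that activates an RNA-cutting nuclease, Oasl2 (ENSMUSG00000029561, chromosome 5, 114896936 to 114912234) had the highest CPM. It stood at 38.2, 51.5 and 40.6 CPM in Vhl GFP, 11.6, 6.64 and 6.88 in Vhl Cre, 31.8, 73.0 and 24.2 in Vhl/Rassf1a GFP and 3.91, 3.50 and 11.7 in Vhl/Rassf1a Cre, with no overlap within either genotype. WT libraries held 21.3, 25.1 and 13.3 CPM with GFP and 17.8, 23.8 and 15.4 with Cre, and Rassf1a libraries 59.2, 55.3 and 42.2 with GFP and 50.3, 37.9 and 52.8 with Cre, all above WT. The Cre effect on Oasl2 was -2.37 (SE 0.39, adjusted p = 3.90e-05) in Vhl cells and -2.74 (SE 0.40, adjusted p = 1.21e-05) in Vhl/Rassf1a cells. Oas1a fell by 1.29 and 1.86, Oas2 by 1.55 and 1.84, and Oasl1 by 0.90 and 1.91. Oas3 was not called in Vhl cells (-0.96, SE 0.40, adjusted p = 0.0639) and fell by 2.13 in Vhl/Rassf1a cells. Oas genes resemble each other, so some of their reads may be shared.

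The group of the Isg15 system and other ubiquitin ligases followed, with 7 of 7 members lower in both genotypes altered in Vhl. Isg15 (ENSMUSG00000035692, chromosome 4, 156199424 to 156200818) is a small ubiquitin-like protein that is joined to other proteins, and was described in every library after its values were seen. It was at 67.7, 86.4 and 66.9 CPM in Vhl GFP, 19.5, 13.9 and 12.5 in Vhl Cre, 59.6, 146 and 41.1 in Vhl/Rassf1a GFP and 5.59, 6.43 and 19.9 in Vhl/Rassf1a Cre. The Vhl/Rassf1a groups were the most uneven: GFP replicate 2 held the highest value of all 24 libraries, and Cre replicate 3 was above the other 2 Cre libraries but below every GFP library. In WT cells Isg15 stood at 33.5, 39.4 and 21.7 with GFP and 25.6, 38.9 and 23.7 with Cre, and in Rassf1a cells at 102, 75.4 and 60.6 with GFP and 71.4, 58.5 and 73.9 with Cre. Isg15 fell 4.80-fold in Vhl cells (-2.26, SE 0.41, adjusted p = 0.000134) and 7.68-fold in Vhl/Rassf1a cells (-2.94, SE 0.43, adjusted p = 1.21e-05).

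Usp18, the protease that removes Isg15 and damps the interferon receptor, fell by 2.19 and 2.62 on the log2 scale, and Herc6, the ligase that attaches Isg15 in mice, by 1.04 and 0.90, in Vhl and Vhl/Rassf1a cells in that order. Trim30a, a member of the TRIM ligase family, fell by 1.51 and 1.62. Dtx3l, which works with Parp9, fell by 1.06 and 0.99. Dtx3l and Parp9 overlap on opposite strands, and whether reads were counted by strand is not given in the sources used here.

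Rnf213 (ENSMUSG00000070327, chromosome 11, 119393100 to 119487418), a giant ubiquitin ligase found on intracellular bacteria and lipid droplets, had 322, 393 and 320.0 CPM in Vhl GFP, 144, 129 and 131 in Vhl Cre, 372, 592 and 307 in Vhl/Rassf1a GFP and 148, 131 and 189 in Vhl/Rassf1a Cre. It had 310.4, 327 and 253 in WT GFP, 283, 309 and 267 in WT Cre, 526, 462 and 408 in Rassf1a GFP and 472, 404 and 468 in Rassf1a Cre. Vhl GFP values overlapped those of WT GFP, while all 6 Rassf1a libraries were above them. The Cre effect was -1.36 (SE 0.17, adjusted p = 1.27e-06) in Vhl cells and -1.44 (SE 0.17, adjusted p = 9.00e-07) in Vhl/Rassf1a cells.

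Trim25 (ENSMUSG00000000275, chromosome 11, 88999376 to 89020293), a ligase that takes part in RNA sensing, changed least of this group. Vhl cells held 125, 136 and 131 CPM with GFP and 88.1, 86.9 and 82.5 with Cre, and Vhl/Rassf1a cells 109, 132 and 101 with GFP and 75.9, 75.5 and 95.8 with Cre. WT cells held 104, 105 and 96.9 with GFP and 93.1, 106 and 93.9 with Cre, and Rassf1a cells 132, 132 and 122 with GFP and 125, 117 and 126 with Cre. Cre and GFP libraries did not overlap in either genotype altered in Vhl, and overlapped in the other two. Trim25 fell by 0.60 (SE 0.09, adjusted p = 7.63e-06) and by 0.47 (SE 0.09, adjusted p = 0.000251) on the log2 scale.

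The 3 Parp enzymes, which attach ADP-ribose to proteins, all fell in both genotypes. Parp12 (ENSMUSG00000038507, chromosome 6, 39086410 to 39118349) stood at 43.7, 49.0 and 43.1 CPM in Vhl GFP, 26.4, 25.0 and 22.8 in Vhl Cre, 45.5, 65.2 and 38.6 in Vhl/Rassf1a GFP and 19.1, 19.1 and 26.6 in Vhl/Rassf1a Cre. In WT it stood at 35.1, 37.5 and 27.8 with GFP and 30.2, 33.0 and 30.8 with Cre, and in Rassf1a cells at 53.7, 52.5 and 47.8 with GFP and 48.7, 43.7 and 50.7 with Cre. All 6 Rassf1a libraries were above all WT libraries, and all 6 Cre libraries altered in Vhl were below them. The Cre effect was -0.87 (SE 0.15, adjusted p = 5.97e-05) in Vhl and -1.20 (SE 0.15, adjusted p = 1.38e-06) in Vhl/Rassf1a cells.

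For Parp9 (ENSMUSG00000022906, chromosome 16, 35938470 to 35972605) the libraries gave 43.2, 50.9 and 43.9 CPM in Vhl GFP, 29.1, 23.9 and 24.2 in Vhl Cre, 42.2, 51.2 and 34.5 in Vhl/Rassf1a GFP and 19.0, 19.0 and 27.8 in Vhl/Rassf1a Cre. They gave 33.2, 33.4 and 22.9 in WT GFP, 27.3, 31.5 and 25.4 in WT Cre, 48.3, 52.3 and 48.8 in Rassf1a GFP and 47.4, 43.5 and 49.0 in Rassf1a Cre. Here Vhl Cre libraries lay within the range of WT Cre or close below it. Parp9 fell by 0.84 (SE 0.15, adjusted p = 0.000121) and 0.96 (SE 0.15, adjusted p = 3.99e-05), and Parp14 by 1.51 and 1.63.

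All 10 GTPases fell in both genotypes altered in Vhl. Some of these proteins gather on the vacuoles of intracellular microbes and break them open. Iigp1 had the most negative Cre effect of all members in Vhl cells, -2.79 (SE 0.32), and -2.55 (SE 0.34) in Vhl/Rassf1a cells. Gbp3, Gbp7 and Gbp2 fell by 2.18, 1.35 and 1.20 in Vhl cells and by 2.30, 1.18 and 0.83 in Vhl/Rassf1a cells. Mx1, a dynamin-like antiviral GTPase, had only 2 to 53 reads per library, and its Cre effects of -2.24 (SE 0.48) and -2.13 (SE 0.48) have wide errors. Mx2, annotated as a polymorphic pseudogene in this build, fell by 1.84 and 2.26, and Ifi47 by 0.71 and 0.62.

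Irgm1 (ENSMUSG00000046879, chromosome 11, 48861968 to 48871683), which keeps the other immunity-related GTPases off the cell's own membranes, gave 139, 176 and 152 CPM in Vhl GFP, 96.0, 87.5 and 80.6 in Vhl Cre, 119, 162 and 102 in Vhl/Rassf1a GFP and 46.7, 50.8 and 71.4 in Vhl/Rassf1a Cre. WT libraries gave 99.9, 98.3 and 76.5 with GFP and 87.8, 95.2 and 73.8 with Cre, and Rassf1a libraries 128, 126 and 117 with GFP and 114, 105 and 115 with Cre. With Cre, the Vhl libraries lay among the WT libraries and the Vhl/Rassf1a libraries below them. It fell by 0.82 (SE 0.15, adjusted p = 0.000148) in Vhl cells and by 1.18 (SE 0.15, adjusted p = 2.88e-06) in Vhl/Rassf1a cells. Irgm1 was also the only member whose Rassf1a Cre libraries were all below the Rassf1a GFP libraries, where 5.58% of all tested genes were, and its effect there was -0.16 (SE 0.15, adjusted p = 0.994).

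Irgm2 (ENSMUSG00000069874, chromosome 11, 58199618 to 58222782), a relative of Irgm1, differed in its starting level. Vhl GFP libraries held 55.5, 64.6 and 57.3 CPM and Vhl Cre libraries 25.1, 20.2 and 18.4, while Vhl/Rassf1a held 25.4, 34.4 and 21.7 with GFP and 6.22, 7.09 and 14.0 with Cre. In WT cells the values were 27.2, 29.5 and 21.7 with GFP and 23.7, 27.1 and 21.0 with Cre, and in Rassf1a cells 28.8, 30.2 and 27.3 with GFP and 28.2, 25.2 and 29.6 with Cre. So only the Vhl GFP libraries stood above the WT range throughout, and only the Vhl/Rassf1a Cre libraries stood below it throughout. The Cre effects were nonetheless close, -1.48 (SE 0.20, adjusted p = 3.15e-06) and -1.58 (SE 0.21, adjusted p = 4.82e-06), with a difference of -0.10 and a 95% interval of -0.71 to 0.51. Irgm2 and Igtp overlap on the same strand, so their reads may not be separable, and Igtp fell by 1.43 and 1.66.

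The 4 nucleic acid sensors among the members fell in both genotypes. Eif2ak2 (ENSMUSG00000024079, chromosome 17, 78852564 to 78882573), the kinase PKR that halts protein synthesis on meeting viral RNA, had 109, 123 and 106 CPM in Vhl GFP, 79.6, 66.6 and 70.6 in Vhl Cre, 95.6, 102 and 82.7 in Vhl/Rassf1a GFP and 56.1, 58.8 and 75.9 in Vhl/Rassf1a Cre. In WT cells it had 75.9, 78.1 and 64.9 with GFP and 75.7, 72.7 and 64.5 with Cre, and in Rassf1a cells 86.6, 100.2 and 94.1 with GFP and 99.6, 88.9 and 101 with Cre. With Cre, the Vhl values spread around those of WT cells. Eif2ak2 fell by 0.64 (SE 0.11, adjusted p = 3.86e-05) and 0.55 (SE 0.11, adjusted p = 0.000315).

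Dhx58 (ENSMUSG00000017830, chromosome 11, 100694884 to 100704271), the helicase LGP2 that tunes the RIG-I family, was less abundant. Its libraries gave 7.75, 8.69 and 7.37 CPM in Vhl GFP, 2.26, 2.39 and 2.22 in Vhl Cre, 6.82, 14.8 and 4.60 in Vhl/Rassf1a GFP and 1.79, 1.38 and 3.25 in Vhl/Rassf1a Cre. WT gave 4.10, 4.80 and 3.80 with GFP and 4.57, 5.85 and 4.32 with Cre, and Rassf1a 10.2, 9.86 and 7.12 with GFP and 10.2, 8.03 and 10.8 with Cre. All 6 Cre libraries altered in Vhl were below all WT libraries, and the 6 Rassf1a libraries were above them. Dhx58 fell by 1.79 (SE 0.32, adjusted p = 0.000100) and 2.02 (SE 0.31, adjusted p = 2.89e-05). Zbp1, a sensor of left-handed nucleic acid, fell by 2.30 and 2.23, and the helicase Ddx60 by 2.09 and 2.00.

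Of the remaining 12 members, 11 fell in each of the genotypes altered in Vhl, and Samd9l, an inhibitor of poxvirus growth, was called in neither (-0.39, SE 0.17, adjusted p = 0.0717; -0.37, SE 0.17, adjusted p = 0.107). Per kilobase of exon, the scale on which genes can be compared, 3 of these were the most abundant members: means over all libraries were 383 CPM per kilobase for Ifitm3, 105 for Lgals3bp and 103 for Bst2, and the lowest was 0.123 for Mx1. Ifitm3 (ENSMUSG00000025492, chromosome 7, 141009586 to 141010770) stops viruses in endosomes. It stood at 303, 317 and 292 CPM in Vhl GFP, 121, 116 and 111 in Vhl Cre, 285, 442 and 278 in Vhl/Rassf1a GFP and 129, 135 and 166 in Vhl/Rassf1a Cre. WT libraries stood at 246, 255 and 207 with GFP and 251, 276 and 261 with Cre, and Rassf1a libraries at 408, 356 and 303 with GFP and 330.4, 311 and 328 with Cre. All 6 Cre libraries altered in Vhl were thus below all WT libraries. The Cre effects on Ifitm3 were -1.39 (SE 0.14, adjusted p = 2.48e-08) and -1.23 (SE 0.13, adjusted p = 2.53e-07).

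Lgals3bp (ENSMUSG00000033880, chromosome 11, 118392751 to 118402092), a secreted glycoprotein that binds galectins, had 366, 434 and 389.9 CPM in Vhl GFP, 209, 214 and 212 in Vhl Cre, 310.4, 528 and 268 in Vhl/Rassf1a GFP and 117, 119 and 183 in Vhl/Rassf1a Cre. It had 249.5, 249 and 234 in WT GFP, 231, 287 and 240.4 in WT Cre, 492, 385 and 348 in Rassf1a GFP and 381, 347 and 371 in Rassf1a Cre. Vhl/Rassf1a GFP replicate 2 was the highest library of all. Its Cre effects were -0.91 (SE 0.18, adjusted p = 0.000424) and -1.40 (SE 0.19, adjusted p = 4.12e-06).

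Xaf1 (ENSMUSG00000040483, chromosome 11, 72301629 to 72313733), a zinc finger protein that favours apoptosis, was described in every library after its values were seen. It stood at 64.9, 82.8 and 67.8 CPM in Vhl GFP, 35.5, 29.3 and 27.4 in Vhl Cre, 99.5, 153 and 76.1 in Vhl/Rassf1a GFP and 27.9, 30.1 and 60.8 in Vhl/Rassf1a Cre. In WT it stood at 17.3, 17.5 and 11.9 with GFP and 14.0, 18.0 and 12.9 with Cre, and in Rassf1a cells at 37.0, 36.6 and 30.7 with GFP and 33.7, 27.7 and 33.9 with Cre. Every library of every altered genotype was above every WT library, with GFP and with Cre. With Cre, Xaf1 fell by 1.22 (SE 0.25, adjusted p = 0.000359) in Vhl cells and by 1.47 (SE 0.24, adjusted p = 6.16e-05) in Vhl/Rassf1a cells.

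The other members of this group spanned a wider range. Rtp4 fell by 2.42 and 2.35 and Ifi44 by 1.48 and 2.25, while Ifi27 fell by 0.59 and 0.47, in Vhl and Vhl/Rassf1a cells in that order. Rsad2, known as viperin, and its neighbour Cmpk2 supply an antiviral nucleotide. They fell by 1.65 and 1.90 in Vhl cells and by 1.51 and 1.77 in Vhl/Rassf1a cells. Sp100, a nuclear body protein, fell by 0.81 and 1.36, and Ifi35 by 0.90 and 1.13. Rtp4 overlaps Masp1, and Ifi35, Sp100, Dhx58 and Oasl1 overlap annotated antisense genes, so their counts could include reads of those genes.

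**Figure D2:**
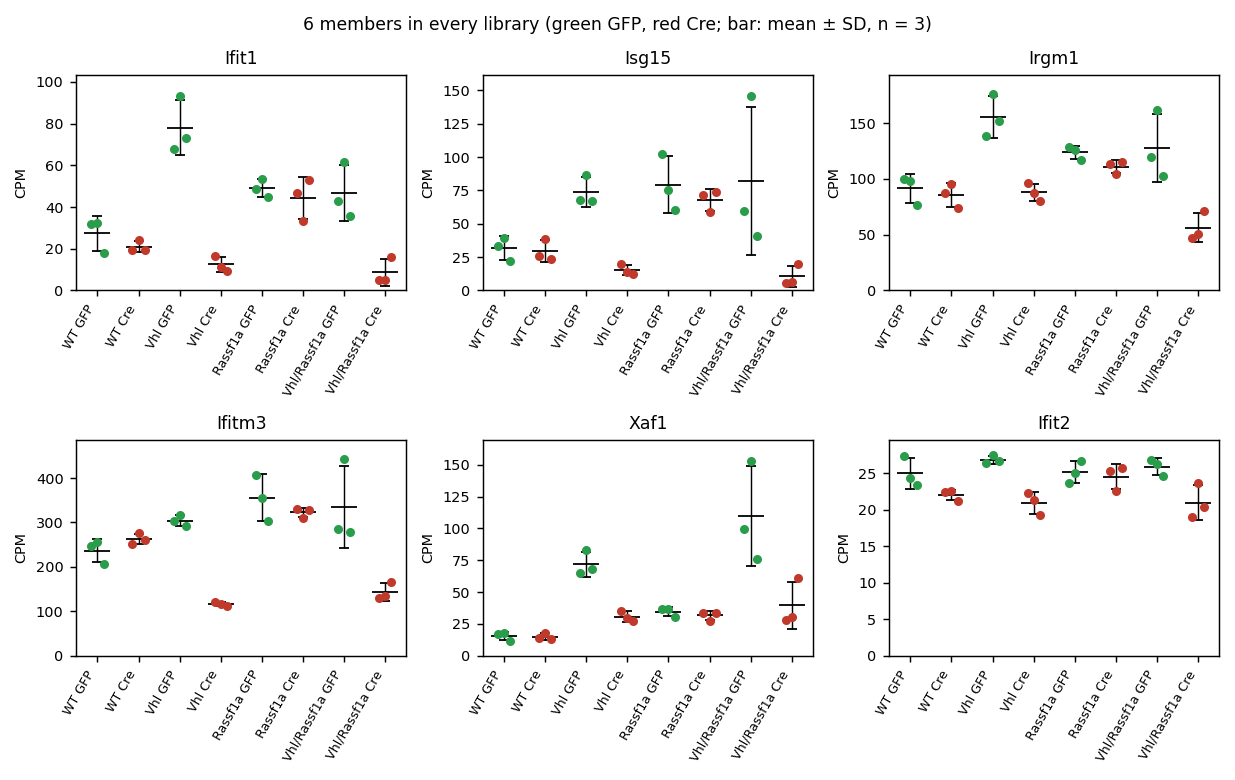
CPM (vertical axis, from 0) of Ifit1, Isg15, Irgm1, Ifitm3, Xaf1 and Ifit2 in every library of the 8 groups (horizontal axis), green for GFP and red for Cre, with bars for the mean ± SD of 3 libraries. In the Vhl and Vhl/Rassf1a groups the Cre points lie below the GFP points in all 6 panels, for Ifit2 by the smallest amount.

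The Cre effects of the members ran in a similar order in the genotypes altered in Vhl. These comparisons share no library, and 43 of 45 members fell in both. Of all tested genes 18.7% were called lower in Vhl cells and 14.8% in Vhl/Rassf1a cells. The share of genes called lower in both was not counted, so this count does not show how far the members stand out. Across the 45 members the log2 fold changes in Vhl and Vhl/Rassf1a cells correlated with a Pearson r of 0.856 and a Spearman rho of 0.869, against 0.744 and 0.641 across all 16573 tested genes. Without the pair of GFP libraries they were 0.908 and 0.904 across the members. The points are genes of the same libraries and are not independent. Members whose window held GAAANNGAAA (18) had a median Cre effect of -1.45 in Vhl cells and -1.76 in Vhl/Rassf1a cells. Those whose window did not (16) had medians of -0.90 and -1.28, and the 11 members with no window in the tables had -1.84 and -2.13. Oasl2 and Ifit2 both had no match, so members without these letters in the window had large as well as small effects.

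The members did not start from the same level in the 4 genotypes. Summed over the 45 members, the level was 1695 CPM ± 215 (SD, n = 3) in WT GFP, 2712 ± 265 in Vhl GFP, 2666 ± 279 in Rassf1a GFP and 2573 ± 822 in Vhl/Rassf1a GFP. Without the pair that stood apart, the remaining Rassf1a GFP libraries were at 2680.3 and 2381 CPM and the remaining Vhl/Rassf1a GFP libraries at 2256 and 1957 CPM. With Cre it was 1669 ± 139 in WT, 1239 ± 85.9 in Vhl, 2460 ± 179.5 in Rassf1a and 1049 ± 249 in Vhl/Rassf1a cells. By this sum Rassf1a cells thus kept the higher level with Cre, and the genotypes altered in Vhl went from above WT to below it. The sum is weighted to the members with the highest CPM. Not every member of Vhl cells ended below WT, as with Irgm1, which differed by 0.04 between Vhl Cre and WT Cre on the log2 scale. For all 45 members the mean log2 difference from WT GFP was above 0 in each of the 3 altered genotypes, which share the WT GFP libraries as their reference.

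In Vhl GFP 36 members were higher than in WT GFP and 0 lower, where 32.1% of all tested genes were called in either direction and 17.2% higher. The median difference was 0.90 on the log2 scale, and every Vhl GFP library was above every WT GFP library for 40 members (24.8% of all tested genes). The summed fibroblast markers were also above those of WT GFP (39565 to 42885 CPM) in every Vhl GFP library. Xaf1 differed by 2.20 (SE 0.26, adjusted p = 6.38e-07), Ifi44, a cytoplasmic protein, by 1.82 (SE 0.33), Trim30a by 1.80 (SE 0.23) and Ifit1 by 1.51 (SE 0.31, adjusted p = 0.000613). Those not called were Ifit2, Oas3, Oasl1, Rnf213, Mx1, Rsad2, Cmpk2, Sp100 and Ifi35.

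In Rassf1a GFP 28 members were higher than in WT GFP and 0 lower (16.1% of genes called, 9.39% higher), with a median of 0.71. The largest differences were those of Oas2 at 1.71 (SE 0.39), Oasl2 at 1.38 (SE 0.36), Zbp1 at 1.37 and Ifi44 at 1.37. The count was 13 without WT GFP replicate 3, which had the lowest member levels of its group. It was 35 without the pair of GFP libraries that stood apart, with a median of 0.63.

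In Vhl/Rassf1a GFP 20 members were higher than in WT GFP and 0 lower (11.5% of genes called, 6.86% higher), with a median of 0.62. That count rested on few libraries. Leaving out Vhl/Rassf1a GFP replicate 2 gave 2, leaving out replicate 3 of WT GFP gave 3 and leaving out its replicate 1 gave 10. It was 4 without the pair that stood apart, with a median of 0.31, 2 when only the compared groups were fitted and 34 without the filter on low counts. Xaf1 kept its call without the pair, at 2.48 against 2.81 with it, and Isg15 lost its call, at 0.66 (adjusted p = 0.150) against 1.38 (adjusted p = 0.0233).

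Irgm2 and Trim30a had uneven baselines. Irgm2 was 1.17 (SE 0.20) above WT in Vhl GFP, 0.13 (SE 0.20) in Rassf1a GFP and 0.05 (SE 0.20) in Vhl/Rassf1a GFP. Trim30a was 1.80, 0.37 and 0.84 above WT in the same order (SE 0.23, 0.24 and 0.24). The differences between these genotypes were not tested.

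**Figure D3:**
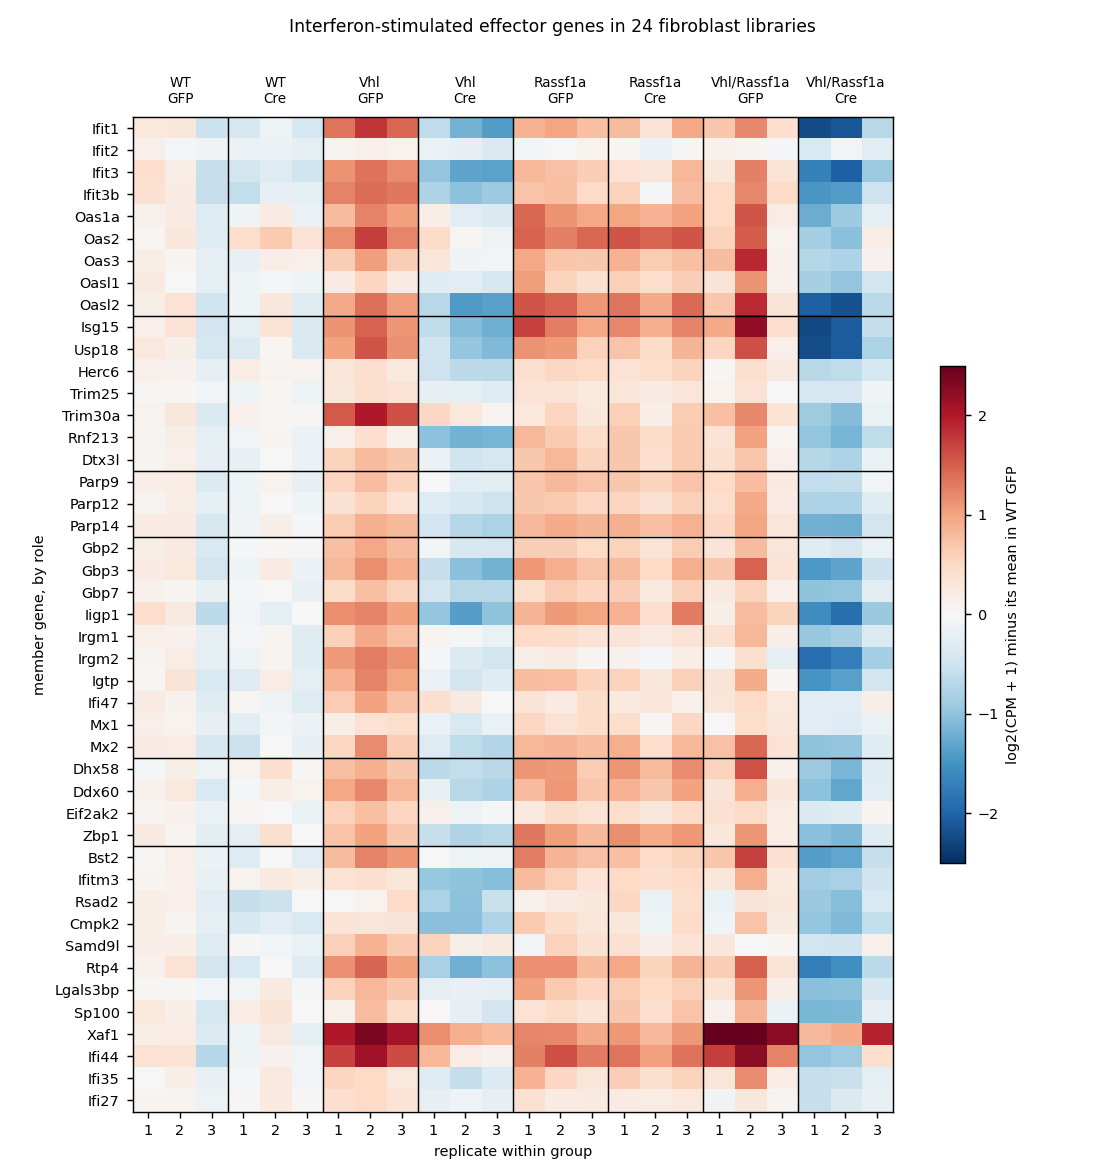
Level of each member (vertical axis, by role) in each of the 24 libraries (horizontal axis, replicates 1 to 3 within the 8 groups), as log2(CPM + 1) minus its mean in WT GFP, red for higher and blue for lower. Most members are red in the Vhl GFP, Rassf1a GFP and Rassf1a Cre columns and blue in the Vhl/Rassf1a Cre columns, with replicate 3 paler than the other 2.

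Among Cre libraries, the comparison with WT shows where the members ended. In Vhl Cre 15 members were lower than in WT Cre and 2 higher, Xaf1 and Ifi47, where 44.7% of all tested genes were called and 21.9% lower. The median difference was -0.47. Xaf1 was higher by 1.04 (SE 0.26, adjusted p = 0.00223, edgeR) with no overlap of the libraries. Ifi47 was higher by 0.47 (SE 0.19, adjusted p = 0.0491, edgeR), close to the threshold, and its Vhl Cre and WT Cre libraries overlapped. Ifitm3 was lower, at -1.17 (SE 0.13, adjusted p = 2.01e-07) and so was Rnf213, at -1.09 (SE 0.17, adjusted p = 1.75e-05), whereas Irgm1 differed by 0.04 (95% interval -0.28 to 0.36) and Eif2ak2 by 0.03 (-0.20 to 0.25). The count was 10 without WT Cre replicate 2, and 33 (4 higher, 29 lower) both when only the compared groups were fitted and without the filter on low counts.

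In Vhl/Rassf1a Cre 32 members were lower than in WT Cre and 1, Xaf1, was higher (33.4% of genes called, 15.8% lower), with a median of -0.86. Iigp1 was lower, at -1.82 (SE 0.35), as were Oasl2 at -1.56 (SE 0.40) and Irgm2 at -1.39 (SE 0.21), and Xaf1 was higher by 1.40 (SE 0.26, adjusted p = 0.000159). In Rassf1a Cre 29 members were higher than in WT Cre and 0 lower (12.4% of genes called, 7.09% higher), with a median of 0.81. Mx1 differed most (1.80, SE 0.44), followed by Ifi44 (1.35, SE 0.33) and Oasl2 (1.30, SE 0.36). Mx1 had only 2 to 53 reads per library, so its rank is uncertain. The Rassf1a count was 10 without WT Cre replicate 1, 15 without WT Cre replicate 3, 15 without Rassf1a Cre replicate 1 and 11 without Rassf1a Cre replicate 3.

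By group mean, 22 members were highest in Vhl GFP, 14 in Rassf1a GFP, 5 in Vhl/Rassf1a GFP and 4 in Rassf1a Cre. Lowest were 36 in Vhl/Rassf1a Cre, 7 in Vhl Cre and 2 in WT Cre. No shares over all tested genes stand beside these counts, so they do not show how far the members stand out.

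**Figure D4:**
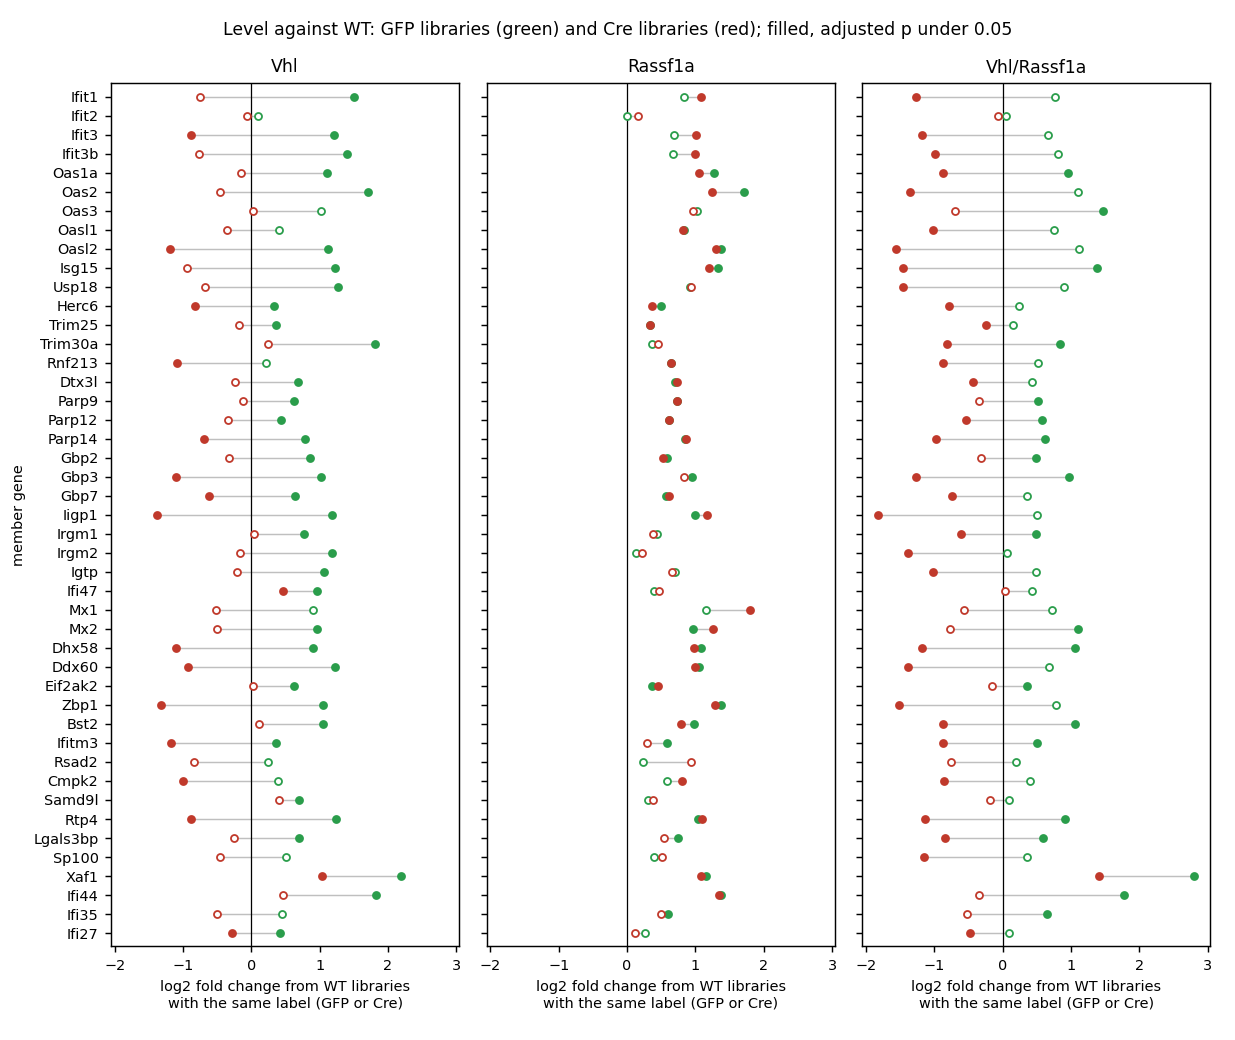
Log2 fold change from WT libraries with the same label (horizontal axis, log2 scale) for each member (vertical axis) in the 3 altered genotypes, green for GFP and red for Cre, filled for an adjusted p under 0.05, with a grey line joining both values of a gene. In the Rassf1a panel both points lie at or right of 0 for every member, and in the Vhl and Vhl/Rassf1a panels the red points lie left of the green, with Xaf1 above 0 for both.

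Within most groups the members moved together. WT GFP replicate 3 was the lowest of its group for 45 of 45 members, where it was lowest for 40.3% of all tested genes. Vhl/Rassf1a GFP replicate 2 was the highest for 43 members (45.2% of genes), Vhl/Rassf1a Cre replicate 3 for 44 (32.6%), Vhl GFP replicate 2 for 41 (31.3%) and Vhl Cre replicate 1 for 39 (36.1%). Rassf1a Cre replicate 2 was the lowest for 43 (32.4%). Rassf1a GFP showed this less, with 24, 18 and 3 members highest in replicates 1, 2 and 3. The median SD of the members between replicates, on the log2 scale, was smallest there, at 0.13 against 0.12 for all genes. It was largest in Vhl/Rassf1a Cre (0.43) and Vhl/Rassf1a GFP (0.42), against 0.06 and 0.13 for all genes. The 45 members are therefore not 45 independent readings of a condition.

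The genes upstream of the members were read from a list of 40 interferon ligands, receptors, kinases, transcription factors, sensors and brakes, of which 29 were tested. In Vhl cells 2 rose with Cre and 13 fell, and in Vhl/Rassf1a cells 3 rose and 15 fell, with list medians of -0.20 and -0.28. Of all tested genes 36.1% were called in Vhl cells (18.7% lower) and 29.7% in Vhl/Rassf1a cells (14.8% lower). Without the pair of GFP libraries 4 rose and 12 fell in Vhl/Rassf1a cells, with a median of -0.13, and the calls of Ifnar2, Irf3 and Irf5 were lost. In Rassf1a and WT cells 0 of the 29 were called by edgeR and 0 by DESeq2, and 0 and 2 had an unadjusted p under 0.05. Of the 9 ligands listed, 0 passed the filter. Ifna1, Ifna2, Ifng, Ifnl2 and Ifnl3 had 0 reads in all 24 libraries, where 0 reads allow up to 3, or 0.0534 to 0.101 CPM in a library. Ifnb1, the interferon that fibroblasts make, had 0 to 5 reads in a group of 3 libraries, so no change of ligand level could be detected at this depth.

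Of 6 receptor genes tested 1 rose in Vhl cells, and in Vhl/Rassf1a cells 1 rose and 1 fell. Of 5 kinase genes tested 1 rose in Vhl cells and 2 in Vhl/Rassf1a cells. In these cells 36.1% and 29.7% of all tested genes were called in either direction. The receptor and kinase changes were small in size. Ifnar1 was at 95.7 ± 4.76 CPM in Vhl GFP and 92.6 ± 0.438 in Vhl Cre (SD, n = 3), a Cre effect of -0.05 with a 95% interval of -0.13 to 0.04, and its effect in Vhl/Rassf1a cells was 0.04 (-0.05 to 0.13). Ifngr1, a receptor chain for interferon gamma, rose by 0.24 (SE 0.05) and 0.25 (SE 0.05), and Jak1 by 0.18 (SE 0.04) and 0.19 (SE 0.04). Jak2, a kinase of the gamma receptor, rose in Vhl/Rassf1a cells by 0.39 (SE 0.08). Ifnar2, the second chain of the type I receptor, fell there by 0.15 (SE 0.06), close to the threshold, and was at -0.09 (adjusted p = 0.233, edgeR) without the pair.

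Transcription factors of the pathway fell, 4 of 7 tested in Vhl cells and 6 of 7 in Vhl/Rassf1a cells. Of all tested genes 18.7% and 14.8% were called lower. Without the pair of GFP libraries that stood apart, the calls of Irf3 and Irf5 in Vhl/Rassf1a cells were lost. Stat2, itself interferon-induced, had 148, 169 and 149 CPM in Vhl GFP, 68.1, 58.6 and 59.8 in Vhl Cre, 121, 185 and 98.2 in Vhl/Rassf1a GFP and 41.6, 43.1 and 70.2 in Vhl/Rassf1a Cre. Its WT libraries had 82.0, 86.8 and 69.5 with GFP and 73.0, 87.0 and 78.2 with Cre, and its Rassf1a libraries 146, 135 and 118 with GFP and 130.1, 116 and 132 with Cre. As with most members, Cre libraries lay below GFP libraries only where Vhl was altered. Stat2 fell by 1.32 (SE 0.18) in Vhl cells and by 1.38 (SE 0.18) in Vhl/Rassf1a cells. Irf7, which drives interferon genes and was chosen after its values were seen, went from 31.4 ± 4.17 CPM to 8.91 ± 0.868 in Vhl cells and from 31.9 ± 18.7 to 7.30 ± 4.05 in Vhl/Rassf1a cells (SD, n = 3). Its Cre effect was -1.81 (SE 0.33, adjusted p = 0.000120) in the former and -2.12 (SE 0.33, adjusted p = 3.10e-05) in the latter. Without the pair of GFP libraries the Vhl/Rassf1a effects were -1.08 for Stat2 and -1.51 for Irf7. Irf9 fell by 0.87 and 0.98, and Irf1 by 0.64 and 0.52. In GFP libraries against WT GFP, Stat2 was higher by 0.97 in Vhl, 0.74 in Rassf1a and 0.76 in Vhl/Rassf1a cells (adjusted p = 0.000216, 0.00519 and 0.00575).

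Sensors and brakes gave the remaining calls. Ddx58, the RNA sensor RIG-I, fell by 0.86 and 1.04, Tmem173, the adaptor STING, by 0.40 and 0.38, and Samhd1, which depletes nucleotides, by 0.43 and 0.50. Tlr3, a receptor for double-stranded RNA, fell by 0.64 and 0.57. Mavs, the adaptor of RIG-I, was not called in either (0.03 and 0.04). Socs3, a feedback inhibitor of cytokine receptors, had 34.1, 29.2 and 31.9 CPM in Vhl GFP, 12.8, 13.4 and 13.1 in Vhl Cre, 15.0, 20.8 and 17.5 in Vhl/Rassf1a GFP and 14.6, 14.9 and 16.3 in Vhl/Rassf1a Cre. It fell by 1.28 (SE 0.10, adjusted p = 4.73e-10) in Vhl cells and was at -0.23 (SE 0.10, adjusted p = 0.0878) in Vhl/Rassf1a cells. Its difference of 1.05 (SE 0.14, adjusted p = 4.91e-05) was the only such difference called in this list, and without the pair Socs3 (1.19) and Jak2 (0.22) were called.

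**Figure D5:**
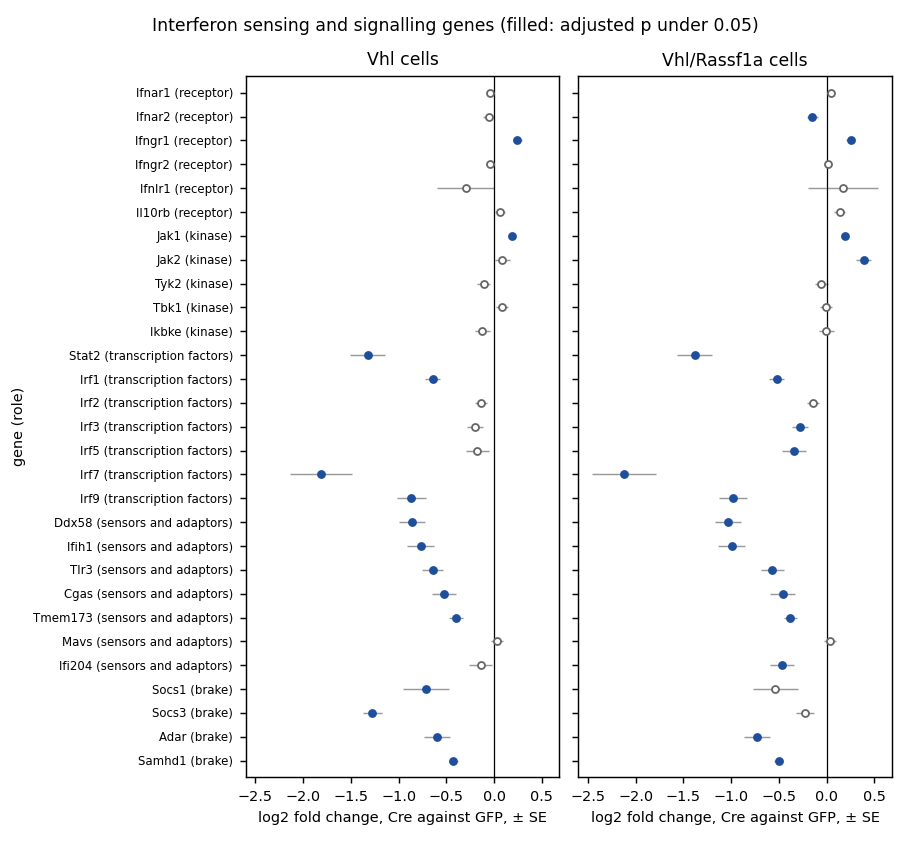
Log2 fold change between Cre and GFP libraries (horizontal axis, log2 scale, ± SE) of the 29 tested sensing and signalling genes (vertical axis, with role) in Vhl and Vhl/Rassf1a cells, filled for an adjusted p under 0.05. Receptors and kinases lie near 0 and most of the transcription factors, led by Irf7, to the left of it, and Socs3 is left of 0 in the Vhl panel.

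Markers of other cell types were read beside these results. Of 13 macrophage markers 10 had a mean under 1 CPM in every group, and the summed level of all 13 was 5.80 to 9.73 CPM in all libraries. Adgre1, Tyrobp, C1qa and C1qb had 0 or 1 read in any group. The remaining markers of the list had means of 1 CPM or more, so the list as a whole was not silent. Within genotypes the sum was 7.63 to 8.33 CPM with GFP and 7.28 to 7.91 CPM with Cre in Vhl cells, and 5.80 to 7.63 CPM with GFP and 8.54 to 9.73 CPM with Cre in Vhl/Rassf1a cells. All 5 lymphoid and plasmacytoid dendritic markers were under 1 CPM, with Cd3e at 0 reads throughout. Summed endothelial markers moved from 16.9 to 18.2 CPM with GFP up to 20.8 to 22.2 CPM with Cre in Vhl cells. In Vhl/Rassf1a cells they moved from 18.4 to 20.7 CPM up to 21.2 to 22.3 CPM, and GFP and Cre libraries did not overlap in either genotype. WT cells had sums of 18.8 to 19.1 CPM with GFP and 17.3 to 19.2 CPM with Cre, and Rassf1a cells sums of 16.6 to 20.2 and 16.9 to 17.5 CPM.

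The summed fibroblast markers of Vhl cells were 57244 to 59575 CPM with GFP and 46714 to 50264 CPM with Cre, and those of WT cells 39565 to 42885 CPM with GFP and 41383 to 44670.2 CPM with Cre. All 6 Vhl libraries were above all 6 WT libraries, and the Vhl Cre libraries below the Vhl GFP libraries. Rassf1a cells had 45485 to 52924 CPM with GFP and 47018 to 47883 CPM with Cre, and Vhl/Rassf1a cells 39182 to 48442 CPM with GFP and 39872 to 43427 CPM with Cre.

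Epithelial markers moved with Cre where Vhl was altered. The sum of 8 genes in Vhl cells was 37.9 to 38.9 CPM with GFP and 127 to 147 CPM with Cre. In Vhl/Rassf1a cells it was 75.6 to 97.5 with GFP and 194 to 202 with Cre, in WT cells 76.4 to 94.9 with GFP and 69.3 to 83.1 with Cre, and in Rassf1a cells 44.6 to 64.4 with GFP and 45.9 to 55.0 with Cre. Most of the sum was Krt19, a keratin, and Epcam was under 1 CPM in every group. Of the 8 markers, 6 had a mean under 1 CPM in Vhl GFP and 4 in Vhl Cre. In Vhl/Rassf1a cells this held for 5 with GFP and 5 with Cre. Of 6 tested epithelial markers 6 rose in Vhl cells and 3 in Vhl/Rassf1a cells. Called in either direction were 36.1% and 29.7% of all tested genes. The part of the epithelial, endothelial, macrophage and fibroblast sums in the members' results was not tested.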

How the data were processed

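RNA of 24 mouse embryonic fibroblast libraries, 3 in each of 8 groups taken from the sample titles, was sequenced. The members and the gene lists were chosen with earlier results of these data known. The authors deposited raw read counts for 45706 Ensembl gene IDs. Per the labels' protocols, a NucleoSpin RNA kit gave the RNA and a TruSeq Stranded kit the libraries. Per the submitters' processing notes, Trimmomatic 0.38, STAR 2.5.2b and the build GRCm38 were used. What counted the reads, with which strand setting and gene models, is not given in the sources used here. Genes that overlap, lie antisense or are near copies may therefore share reads. Symbols and coordinates came from GENCODE M21 (GRCm38), which named 45143 IDs, and promoters from RefSeq (GRCm38.p6). The series' design note names single kidney tubule cells, and the sample labels were followed.

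From these counts, edgeR 4.0.16 in R 4.3.3 (filterByExpr by group, minimum count 10, minimum total 15, TMM, glmQLFit and glmQLFTest) fitted 1 mean per group over all 24 libraries, with 16 residual degrees of freedom and a common biological coefficient of variation of 7.73%. It tested 16573 genes in 14 comparisons, two-sided, with Benjamini-Hochberg adjustment over all genes and a threshold of 0.05. Adjusted p-values are from this edgeR test. The SE is the log2 fold change divided by the square root of F, and 95% intervals come from it with 16 degrees of freedom. CPM uses TMM library sizes, and counts of 0 allow up to 3 reads for counting error only. The fit was checked on simulated data.

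Values in every library are given for the 2 members of each role with the highest mean CPM, with Isg15, Ifit2 and Xaf1 added after their values were seen. Of non-members, Vhl, Rassf1 and, by smallest adjusted p in the Vhl Cre effect, 8 genes each of the signalling and class I lists are named. A signalling gene is not reported here. The ligands, Ifnar1, Ifnar2, Ifngr1, Jak1, Jak2, Mavs, Irf7 and H2-D1 were added after their values were seen. Alternatives were DESeq2 size factors, the DESeq2 1.42.0 Wald test, no filter beyond a total of 1, a fit of the compared groups alone, a replicate block, each library left out, and both GFP libraries that stood apart left out.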

Additional observations from a re-analysis of the deposited data

Results flagged for a closer look

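The Cre effect differed between genotypes by a test of the difference itself for these results, with edgeR's quasi-likelihood test over all genes. Relative to WT cells, 36 members fell further in Vhl cells and 40 in Vhl/Rassf1a cells. Both sets of differences use the same WT libraries.

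In Vhl cells the difference from the WT Cre effect was -2.26 for Ifit1, -2.30 for Oasl2, -2.16 for Isg15, -1.31 for Rnf213 and -0.54 for Trim25 on the log2 scale. It was -0.77 for Parp12, -0.75 for Parp9, -0.72 for Irgm1, -1.34 for Irgm2, -0.60 for Eif2ak2 and -2.01 for Dhx58. Lgals3bp differed by -0.96, Ifitm3 by -1.54 and Xaf1 by -1.16. The calls of Irgm1 and Xaf1 were lost without WT GFP replicate 3 (-0.61 and -1.01) or Vhl GFP replicate 2 (-0.62 and -1.04), and that of Xaf1 also without WT Cre replicate 2 or Vhl Cre replicate 3 (-1.09).

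In Vhl/Rassf1a cells the same difference was -2.03 for Ifit1, -2.67 for Oasl2, -2.84 for Isg15, -1.39 for Rnf213 and -0.40 for Trim25. It was -1.11 for Parp12, -0.87 for Parp9, -1.09 for Irgm1, -1.44 for Irgm2, -0.51 for Eif2ak2 and -2.24 for Dhx58. Lgals3bp differed by -1.45, Ifitm3 by -1.38 and Xaf1 by -1.40. The call of Trim25 was lost without any of WT GFP replicate 3, WT Cre replicate 2, Vhl/Rassf1a GFP replicate 2 and Vhl/Rassf1a Cre replicates 1 and 2 (-0.37 to -0.28), or without the pair of GFP libraries that stood apart. That of Eif2ak2 was lost without any of WT GFP replicate 3, WT Cre replicates 1 and 2 and Vhl/Rassf1a Cre replicates 1 and 2 (-0.49 to -0.42). When only the compared groups were fitted, the calls of Trim25, Eif2ak2 and Xaf1 were lost, at -0.39, -0.50 and -1.39.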

How the results depend on the processing

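Of the 118 calls on members described in every library, 1395 of 1515 refits under the alternatives kept the call, 120 lost it and 0 changed direction. Most losses were in comparisons with WT. Without the filter on low counts, the number of members called was 1 for the Rassf1a Cre effect, 4 for the WT Cre effect, 9 for the Vhl/Rassf1a minus the Vhl Cre effect, 34 for Vhl/Rassf1a GFP against WT GFP and 33 for Vhl Cre against WT Cre. Fitting only the compared groups gave 2 for Vhl/Rassf1a GFP and 33 for Vhl Cre against WT. Leaving out both GFP libraries that stood apart gave 4 for Vhl/Rassf1a GFP against WT GFP and 2 for the Vhl/Rassf1a minus the Vhl Cre effect. The cause was not tested.

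With each library left out in turn, the number called was 41 to 44 for the Vhl Cre effect, 43 to 45 for the Vhl/Rassf1a Cre effect, and 0 for the Rassf1a and WT Cre effects. It was 31 to 36 for the difference of Vhl from WT, 35 to 41 for that of Vhl/Rassf1a from WT, 0 for that of Rassf1a from WT and 0 to 2 for that of Vhl/Rassf1a from Vhl. Against WT GFP it was 28 to 36 for Vhl, 13 to 27 for Rassf1a and 2 to 26 for Vhl/Rassf1a, and against WT Cre 10 to 17, 10 to 26 and 22 to 40. Groups of 3 limit what small differences these libraries can show.

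Same-numbered libraries showed little common deviation (30 correlations from -0.12 to 0.09, all under 0.1), so the samples were not treated as paired. In the Rassf1a Cre effect each library correlated best with its own number, though weakly (0.02 to 0.03). Whether same-numbered libraries share an embryo or culture is not known. With a replicate block 43 members were called for the Vhl Cre effect, 44 for Vhl/Rassf1a, 0 for Rassf1a and 0 for WT, and no count in the 14 comparisons moved by over 1.5 times.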

Other observations

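Genes of antigen presentation by class I molecules, which show peptides from inside the cell to T cells and are also interferon-responsive, had medians nearer 0 than the effector genes. Of 13 genes listed and tested, 11 fell and 1 rose with Cre in Vhl cells, and 10 fell and 1 rose in Vhl/Rassf1a cells, with medians of -0.42 and -0.49. Of all tested genes 36.1% and 29.7% were called in these comparisons, 18.7% and 14.8% lower. In Rassf1a and WT cells 0 were called by edgeR and 0 by DESeq2, and 0 and 1 had an unadjusted p under 0.05. Nlrc5, the transcriptional activator of class I genes, fell by 1.09 (SE 0.17) and 1.31 (SE 0.17) on the log2 scale. B2m, the common light chain, went from 767 ± 46.5 CPM to 600.0 ± 31.3 in Vhl cells (SD, n = 3; -0.36, adjusted p = 0.000116) and from 649 ± 16.1 to 457 ± 28.9 in Vhl/Rassf1a cells (-0.51, adjusted p = 2.04e-06). Erap1, which trims peptides, fell by 0.60 and 0.49, Tap1, a peptide transporter, by 0.62 and 0.48, and Tapbp by 0.42 and 0.52. Psme2 and Psmb10, parts of the proteasome, fell by 0.42 and 0.67 in Vhl cells and by 0.36 and 0.59 in Vhl/Rassf1a cells.

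The heavy chain gene H2-K1 went the other way. It was at 104 ± 11.6 CPM in Vhl GFP and 157 ± 2.29 in Vhl Cre, and at 84.9 ± 19.9 in Vhl/Rassf1a GFP and 119 ± 11.1 in Vhl/Rassf1a Cre (SD, n = 3). It rose by 0.59 (SE 0.11, adjusted p = 0.000245) in the former cells and by 0.49 (SE 0.12, adjusted p = 0.00225) in the latter, while H2-D1, which it resembles in sequence and with which it may share reads, fell by 0.39 and 0.60.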
